A study of Mus musculus with 7 samples.

Results

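Interferon-stimulated genes are the genes that a cell turns on after an interferon binds its receptor, and 38 of them were followed here across papillomas and carcinomas of mouse skin. The 38 genes were taken from a fixed list, and each was read from 1 probe set, the brightest on average across the 7 arrays of those that the array annotation assigns to a single gene symbol. Under this rule 36 of the 38 genes were measured, out of 18193 genes in all. Genes typical of type I interferon made up 26 of 28 listed, and genes typical of type II interferon made up 10 of 10 listed. Isg15 and Ifi44, both type I genes, had no probe set that met the rule and are not analysed here.

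The arrays held RNA of sorted cells positive for Cd34, a surface marker of tumour-propagating skin cells, and for Epcam, an adhesion protein of epithelial cells. The tumours were squamous skin tumours of mice, raised with DMBA, which mutates DNA, and TPA, which drives the growth of mutated cells. Carcinoma, the malignant form, gave 4 arrays, of which 1 carried the tag GFP in its title and 3 carried the numbers 1 to 3. Papilloma, the benign form, gave 3 arrays, of which 1 carried the tag GFP and 2 carried the numbers 1 and 2. The labels do not say what the tag GFP stands for, and give no strain, age or sex. Descriptions of the arrays put the gene name Nr2f2, a nuclear receptor that the title of the series ties to the malignant state, before the tumour type and give no genotype. Nothing in the labels says that the arrays came from separate mice, so p-values measure the spread between these arrays, which may be technical. The comparison of carcinoma with papilloma is the one the study was built on. The comparison of GFP arrays with untagged arrays was added because the tag separates arrays of both tumour types.

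Type I interferons act through the receptor Ifnar1 and Ifnar2 and activate a factor containing Stat2 and Irf9 that binds the interferon-stimulated response element (ISRE). Type II interferon, the product of Ifng, acts through Ifngr1 and Ifngr2 and on genes with a gamma-activated site (GAS), among them Irf1, which turns on further genes through ISRE-like elements. Both programmes share many targets, so the division into type I and type II genes follows the interferon under which each gene is best known and is not exclusive. In skin, keratinocytes as well as immune, endothelial and connective tissue cells respond to interferons.

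The DNA just before the transcription start of 6 of the genes is printed to show matches to the patterns of these elements in genes whose levels are given below. Sequences are those of RefSeq on the build GRCm38.p6, 250 bases before the start, 5′ to 3′ on the strand of the gene. Capitals mark matches to the core of the ISRE, GAAANNGAA, on either strand, or in Irf1 to the GAS pattern TTCNNNGAA. In Gbp3 and Socs1 2 matches overlap and are printed as 1 run of capitals.

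Irf1 chr11:53769764-53770013, plus strand: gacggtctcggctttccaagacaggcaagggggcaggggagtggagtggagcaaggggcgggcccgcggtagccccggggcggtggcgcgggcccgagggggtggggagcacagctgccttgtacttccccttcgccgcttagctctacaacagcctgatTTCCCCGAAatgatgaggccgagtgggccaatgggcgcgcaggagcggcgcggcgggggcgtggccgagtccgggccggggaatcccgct
Gbp2 chr3:142620413-142620662, plus strand: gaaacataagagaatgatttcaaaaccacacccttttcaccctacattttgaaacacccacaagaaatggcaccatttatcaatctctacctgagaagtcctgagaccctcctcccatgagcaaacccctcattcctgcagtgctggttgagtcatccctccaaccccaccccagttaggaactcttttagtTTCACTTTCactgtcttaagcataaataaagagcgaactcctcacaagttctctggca
Gbp3 chr3:142559794-142560043, plus strand: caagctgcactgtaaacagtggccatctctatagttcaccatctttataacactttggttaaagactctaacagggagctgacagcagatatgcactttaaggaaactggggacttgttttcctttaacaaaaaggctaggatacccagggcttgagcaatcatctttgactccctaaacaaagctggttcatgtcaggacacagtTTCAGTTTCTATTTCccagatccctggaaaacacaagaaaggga
Cxcl9 chr5:92328080-92328329, minus strand: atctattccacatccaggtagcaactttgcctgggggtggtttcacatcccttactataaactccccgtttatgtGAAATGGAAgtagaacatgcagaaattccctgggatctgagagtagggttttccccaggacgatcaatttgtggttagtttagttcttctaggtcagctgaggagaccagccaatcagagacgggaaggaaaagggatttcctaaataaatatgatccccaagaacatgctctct
Socs1 chr16:10785537-10785786, minus strand: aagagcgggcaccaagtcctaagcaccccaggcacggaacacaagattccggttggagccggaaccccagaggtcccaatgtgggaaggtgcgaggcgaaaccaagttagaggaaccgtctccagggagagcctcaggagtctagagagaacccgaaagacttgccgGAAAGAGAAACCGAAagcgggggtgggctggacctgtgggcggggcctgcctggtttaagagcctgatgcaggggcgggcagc
Trim30a chr7:104465194-104465443, minus strand: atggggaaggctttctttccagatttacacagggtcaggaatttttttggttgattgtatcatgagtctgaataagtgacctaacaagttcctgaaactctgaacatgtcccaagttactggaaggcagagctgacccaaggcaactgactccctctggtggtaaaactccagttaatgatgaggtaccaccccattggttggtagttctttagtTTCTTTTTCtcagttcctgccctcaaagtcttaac

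The marked run starts 90 bases before the start of transcription in Irf1, 58 in Gbp2, 44 in Gbp3, 175 in Cxcl9, 83 in Socs1 and 35 in Trim30a. Of the 36 measured genes, 29 had a promoter in the RefSeq table, and the window searched ran from 250 bases before to 50 bases after the start, on both strands. GAAANNGAA was found for 21 of the 29 genes (72.4%), against 9.76% of all 27025 genes with a promoter and 8.56% of all 32851 promoters. By class, it was found for 13 of 20 type I genes (65.0%) and 8 of 9 type II genes (88.9%). TTCNNNGAA, which reads the same on both strands and can overlap the other pattern, was found for 10 of the 29 genes (34.5%), against 9.55% of all genes and 8.3% of all promoters. Both patterns were found for 7 of the 29 genes and neither for 5. A match of letters describes the sequence and does not show that a factor binds there.

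Arrays were alike in overall level, with medians over all probe sets between 5.38 and 5.50 on the log2 scale. Both sort markers lay above the array medians in every array, with Epcam lowest and Cd34 highest in the GFP arrays. Presence of both markers does not show that GFP and untagged arrays held the same cells. Epcam lay at 9.59 and 8.28 in the carcinoma and papilloma GFP arrays, against 10.52 to 11.97 in untagged arrays. Cd34 lay at 11.73 and 11.66 in the carcinoma and papilloma GFP arrays, against 8.76 to 10.80 in untagged arrays. The GFP arrays stood apart from the others in 3 ways, which bear on every comparison below that uses them. The 8 endothelial markers averaged 10.67 to 10.84 in GFP arrays, against 5.17 to 5.80 in untagged arrays, and all 8 passed the test of the tag. Fibroblast markers averaged 11.35 to 12.33 in GFP arrays, against 5.93 to 8.30 in untagged arrays, and 7 of 8 passed. All of these were called higher in GFP arrays, against 11.9% of all genes. The 3′ minus 5′ difference of the Gapdh control probe sets, a sign of RNA length, was 3.19 in both GFP arrays and -0.04 to 0.06 in untagged arrays.

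Both classes of genes averaged highest in the GFP arrays. Type I genes averaged 7.96 in the carcinoma GFP array and 6.04, 6.26 and 6.86 in carcinoma arrays 1, 2 and 3, against 7.94 in the papilloma GFP array and 6.34 and 6.79 in papilloma arrays 1 and 2. Type II genes averaged 9.08 in the carcinoma GFP array and 5.56, 6.12 and 6.13 in carcinoma arrays 1, 2 and 3, against 8.53 in the papilloma GFP array and 7.21 and 7.81 in papilloma arrays 1 and 2. In the untagged arrays the type I means of the tumour types overlapped, while every type II mean of carcinoma lay below every type II mean of papilloma. In RNA from pools of sorted cells, fewer cells of a type and less RNA per cell cannot be told apart.

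**Figure D1:**
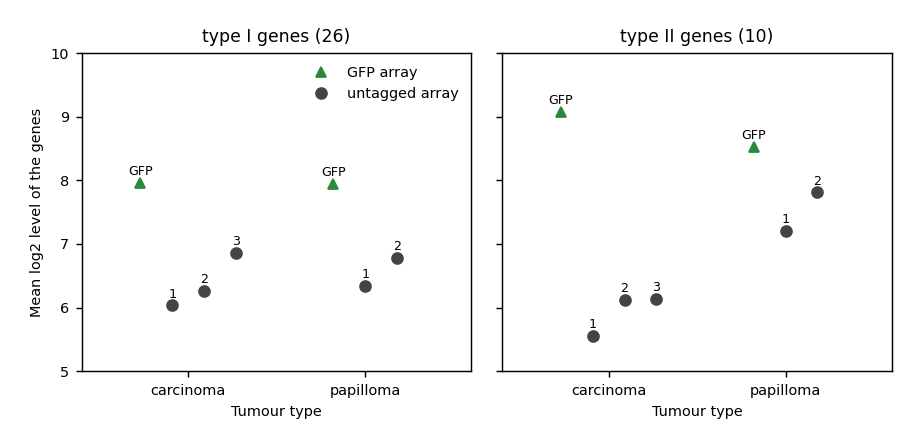
Mean log2 level of the 26 type I genes (left) and the 10 type II genes (right) in each array, by tumour type on the horizontal axis. Green triangles are GFP arrays and grey circles untagged arrays with their numbers. Type II means of untagged carcinoma arrays, 5.56 to 6.13, lie below those of untagged papilloma arrays, 7.21 and 7.81.

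**Figure D2:**
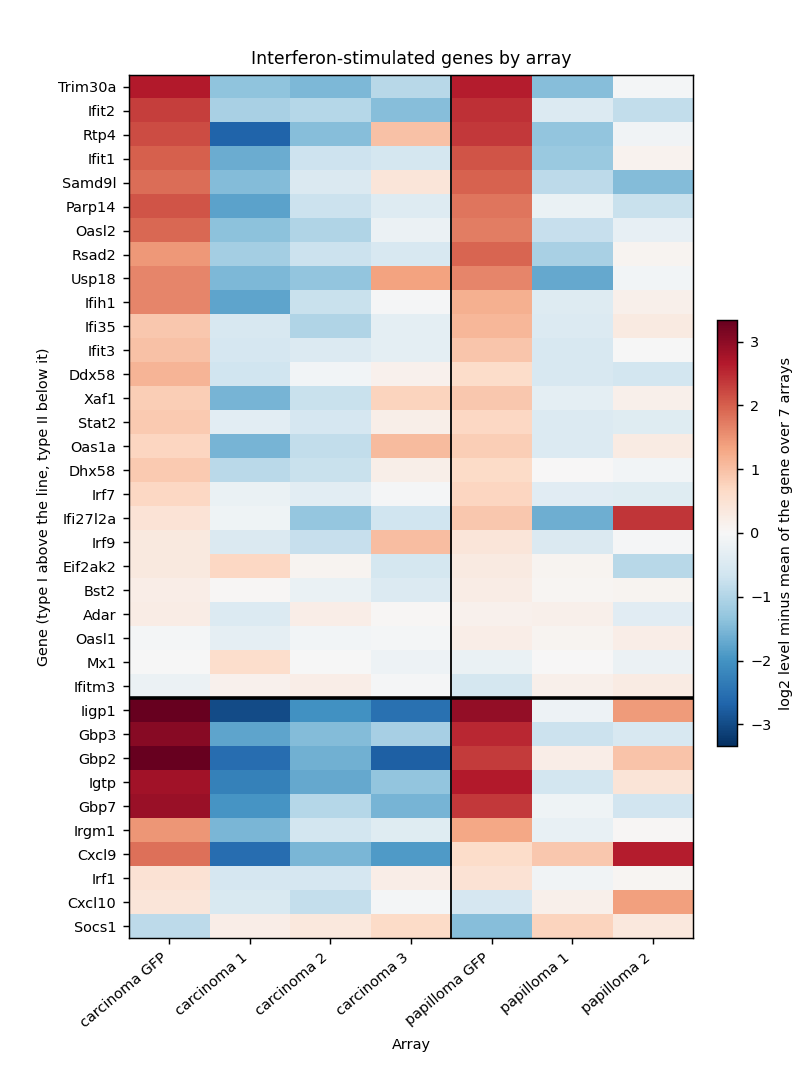
Log2 level of each gene in each array minus the gene's mean over the 7 arrays, with carcinoma arrays left of the vertical line and papilloma arrays right of it, type I genes above the horizontal line and type II genes below it. Both GFP arrays lie above the gene's mean, in red, except for Socs1, Ifitm3, Mx1, Oasl1 and Cxcl10. For some genes an untagged array is the highest, as papilloma 2 is for Cxcl9 and Cxcl10.

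No gene of the 36 differed between carcinoma and papilloma cells past the threshold of the test. By limma with Benjamini-Hochberg adjustment over all 18193 genes, 0 of 36 genes passed, against 0% of all genes, and 0 of 36 had an unadjusted p under 0.05, against 0.616% of all genes. Means were higher in carcinoma for 11 genes and lower for 25. The median difference was -0.32 for type I genes and -0.83 for type II genes, against -0.02 over all genes. The 4 carcinoma arrays all lay above the 3 papilloma arrays for 0 of 36 genes, against 0.506% of all genes, and all below them for 1 of 36, against 0.912%. That gene was Oasl1, a relative of the oligoadenylate synthetases that in mice restrains translation of Irf7. Oasl1 ranged from 5.53 to 5.77 in carcinoma and from 5.91 to 6.04 in papilloma, a difference of -0.30 ± 0.15 (SE, n = 4 and 3). The type I median turned with single arrays, to 0.04 without carcinoma 1 and 0.27 without the papilloma GFP array. The type II median ran from -0.44 without carcinoma 1 to -1.94 without the carcinoma GFP array.

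Among type I genes the largest difference between tumour types was that of Ifi27l2a, which encodes a small interferon-inducible protein. Ifi27l2a had levels of 6.87 in the carcinoma GFP array and 6.26, 5.12 and 5.74 in carcinoma arrays 1, 2 and 3, against 7.31 in the papilloma GFP array and 4.78 and 8.79 in papilloma arrays 1 and 2. Papilloma 2 lay above all other arrays and papilloma 1 below them, and the difference was -0.96 ± 0.92 (SE). Ifit2, an RNA-binding tetratricopeptide protein, had levels of 7.80 in the carcinoma GFP array and 4.42, 4.54 and 4.08 in carcinoma arrays 1, 2 and 3, against 7.95 in the papilloma GFP array and 5.04 and 4.69 in papilloma arrays 1 and 2. The 3 untagged carcinoma arrays lay below the 2 untagged papilloma arrays, both GFP arrays lay far above all of these, and the difference between tumour types was -0.68 ± 1.15 (SE). Trim30a, a tripartite motif protein that dampens Toll-like receptor signalling, had levels of 8.94 in the carcinoma GFP array and 4.94, 4.78 and 5.35 in carcinoma arrays 1, 2 and 3, against 8.91 in the papilloma GFP array and 4.87 and 6.22 in papilloma arrays 1 and 2. Its untagged arrays overlapped between tumour types, and the difference was -0.67 ± 1.31 (SE). Differences of the other 23 type I genes ran from -0.56 for Ifi35 to 0.31 for Ddx58.

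The factors that carry the type I signal had differences between tumour types smaller than their standard errors. Stat2, a subunit of the ISRE-binding factor, had levels of 6.45 in the carcinoma GFP array and 5.22, 5.01 and 5.77 in carcinoma arrays 1, 2 and 3, against 6.28 in the papilloma GFP array and 5.12 and 5.18 in papilloma arrays 1 and 2. Irf9, the DNA-binding part of that factor, had levels of 7.39 in the carcinoma GFP array and 6.60, 6.30 and 8.11 in carcinoma arrays 1, 2 and 3, against 7.47 in the papilloma GFP array and 6.57 and 7.04 in papilloma arrays 1 and 2. For both genes carcinoma 3 was the highest untagged array, and for Irf9 it was the highest of all 7. Irf7, which amplifies production of type I interferons, had levels of 7.17 in the carcinoma GFP array and 6.26, 6.12 and 6.43 in carcinoma arrays 1, 2 and 3, against 7.20 in the papilloma GFP array and 6.11 and 6.07 in papilloma arrays 1 and 2. Its untagged arrays lay within a range of 0.36. Differences between tumour types were 0.09 ± 0.44 for Stat2, 0.07 ± 0.47 for Irf9 and 0.04 ± 0.38 for Irf7 (SE).

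Usp18, a protease that removes Isg15 from proteins and dampens signalling at the type I receptor, split the untagged arrays. It had levels of 8.05 in the carcinoma GFP array and 4.91, 5.09 and 7.75 in carcinoma arrays 1, 2 and 3, against 8.04 in the papilloma GFP array and 4.70 and 6.33 in papilloma arrays 1 and 2. Carcinoma 3 lay close to the GFP arrays, and papilloma 2 lay between them and the others. Rtp4, a receptor transporter protein, had levels of 9.84 in the carcinoma GFP array and 4.99, 6.23 and 8.63 in carcinoma arrays 1, 2 and 3, against 10.02 in the papilloma GFP array and 6.34 and 7.53 in papilloma arrays 1 and 2. Again carcinoma 3 and papilloma 2 were the highest untagged arrays. Over the 26 type I genes, carcinoma 3 was the highest untagged array for 11 and papilloma 2 for 10, while carcinoma 1 was the lowest for 13. Ifitm3, a membrane protein that blocks virus entry, had levels of 12.08 in the carcinoma GFP array and 12.42, 12.49 and 12.24 in carcinoma arrays 1, 2 and 3, against 11.68 in the papilloma GFP array and 12.46 and 12.54 in papilloma arrays 1 and 2. Both GFP arrays were the lowest for Ifitm3.

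Among type II genes the largest differences between tumour types were those of Iigp1, Cxcl9 and Gbp2, and none passed the test. Iigp1, an immunity-related GTPase that disrupts the vacuoles of intracellular parasites, had levels of 10.68 in the carcinoma GFP array and 4.34, 5.32 and 4.83 in carcinoma arrays 1, 2 and 3, against 10.27 in the papilloma GFP array and 7.17 and 8.76 in papilloma arrays 1 and 2. Gbp2, a guanylate-binding protein of the same defence, had levels of 10.82 in the carcinoma GFP array and 4.95, 5.89 and 4.76 in carcinoma arrays 1, 2 and 3, against 9.82 in the papilloma GFP array and 7.71 and 8.45 in papilloma arrays 1 and 2. For both genes the 3 untagged carcinoma arrays were the lowest of the 7, the 2 untagged papilloma arrays lay in the middle and both GFP arrays were the highest. Cxcl9, a chemokine that draws T cells carrying Cxcr3, had levels of 8.68 in the carcinoma GFP array and 4.30, 5.31 and 4.95 in carcinoma arrays 1, 2 and 3, against 7.46 in the papilloma GFP array and 7.75 and 9.46 in papilloma arrays 1 and 2. Here the papilloma GFP array was the lowest of its tumour type, and the carcinoma GFP array lay among the papilloma arrays. Differences were -2.44 ± 1.62 for Iigp1, -2.41 ± 1.09 for Cxcl9 and -2.05 ± 1.50 for Gbp2 (SE), with adjusted p = 1 for each by limma. A further probe set of each of these 3 genes gave the same direction, with -2.09 for Iigp1, -0.96 for Cxcl9 and -1.80 for Gbp2.

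Without the GFP arrays, the means of the type II genes were lower in carcinoma than in papilloma, and no gene passed after adjustment. The largest difference was 13.5 times for Cxcl9, and its size depended on the probe set. In the 3 untagged carcinoma arrays against the 2 untagged papilloma arrays, all 10 type II genes had a lower mean, with a median difference of -1.16, and 17 of 26 type I genes had a lower mean, with a median of -0.30. The median over all genes was -0.05, and 57.9% of all genes had a lower mean. After adjustment over all genes limma called 0 of 36 genes, against 0% of all genes. The carcinoma arrays all lay below the papilloma arrays for 8 of 10 type II genes and 3 of 26 type I genes, against 8.81% of all genes. They all lay above for 0 of 10 type II genes and 1 of 26 type I genes, against 3.47%. Of the 10 type II genes 7 were lower at an unadjusted p under 0.05, as were 0 of 26 type I genes, against 1.14% of all genes. Type I genes with carcinoma below were Ifit2, Oasl1 and Bst2, the tether of budding virus particles, and the one with carcinoma above was Irf7.

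Sizes differed among the type II genes in these untagged arrays. Cxcl9 averaged 4.86 in untagged carcinoma and 8.61 in untagged papilloma. The difference was -3.75 ± 0.57 (SE, n = 3 and 2), which is 13.5 times lower in carcinoma. A further, dimmer Cxcl9 probe set lay at 3.94, 4.21 and 3.85 in carcinoma arrays 1, 2 and 3. It lay at 5.03 and 6.44 in papilloma arrays 1 and 2, the same direction with a smaller difference. Iigp1 was 8.76 times lower (-3.13 ± 0.54), Gbp2 7.36 times lower (-2.88 ± 0.42) and Igtp, another immunity-related GTPase, 3.18 times lower (-1.67 ± 0.42). Cxcl10, the companion chemokine of Cxcl9, had levels of 7.22 in the carcinoma GFP array and 6.30, 6.0 and 6.72 in carcinoma arrays 1, 2 and 3, against 6.23 in the papilloma GFP array and 6.98 and 8.16 in papilloma arrays 1 and 2. Its untagged groups did not overlap, with carcinoma 3 only 0.26 below papilloma 1, and the difference was -1.23 ± 0.42 (SE). The other genes without overlap were Gbp7 (-1.09), Gbp3 (-0.82) and Irgm1 (-0.74), the last a regulator of the GTPases and of autophagy. Irf1 and Socs1 were the 2 type II genes whose untagged arrays overlapped. Irf1, the factor that carries the type II response onward, had levels of 10.06 in the carcinoma GFP array and 9.04, 9.02 and 9.80 in carcinoma arrays 1, 2 and 3, against 10.08 in the papilloma GFP array and 9.46 and 9.64 in papilloma arrays 1 and 2. Carcinoma 3 exceeded both untagged papilloma arrays for Irf1, and the untagged difference was -0.27 ± 0.31 (SE).

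**Figure D3:**
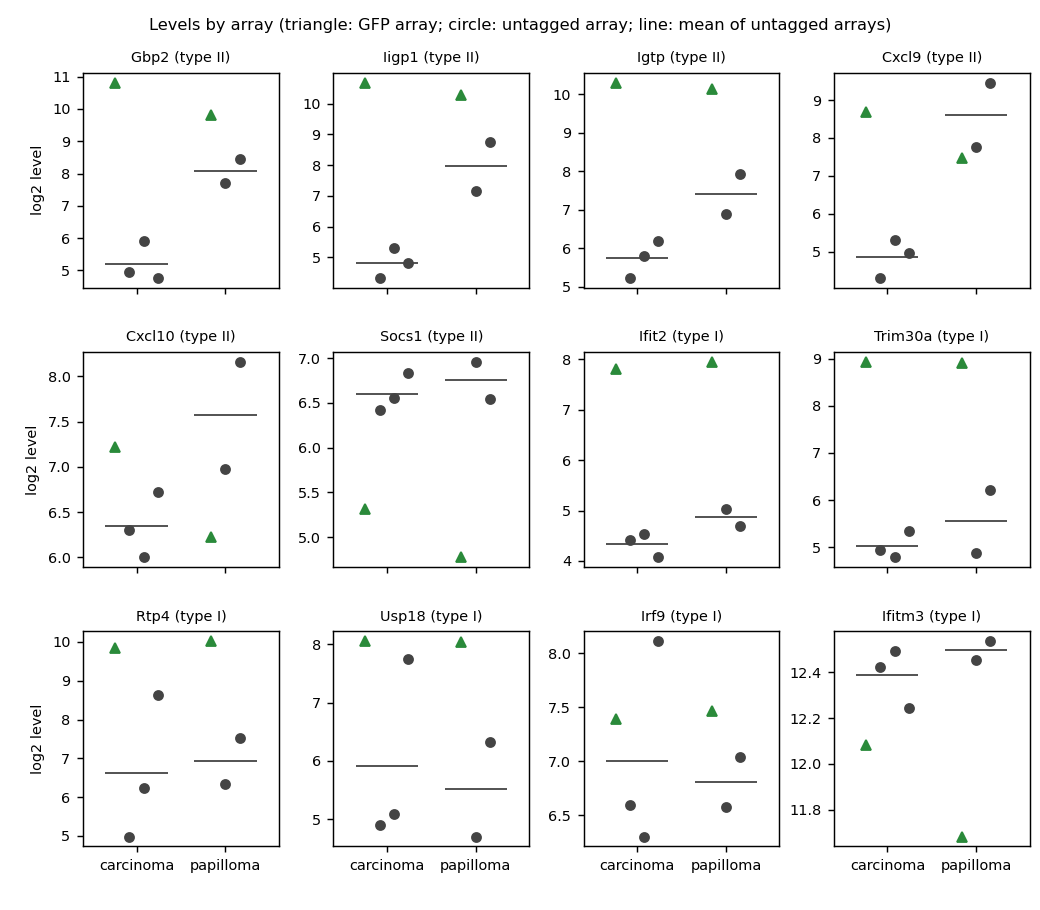
Log2 level of 12 genes in each array, carcinoma left and papilloma right in each panel, each panel with its own vertical scale. Triangles are GFP arrays, circles untagged arrays, and lines the mean of the untagged arrays of a tumour type. Iigp1, Gbp2, Igtp and Cxcl9 have all untagged carcinoma arrays below the untagged papilloma arrays, Socs1 and Ifitm3 have both GFP arrays at the bottom, and Usp18, Rtp4 and Irf9 have carcinoma 3 as the highest untagged array.

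Markers of other cells were set beside this difference, and their part in it was not tested. Over all genes 57.9% had a lower mean in untagged carcinoma and 42.1% a higher one. The 6 T cell markers averaged 5.07 to 5.21 in untagged carcinoma and 5.14 to 5.57 in untagged papilloma. Of these, 6 of 6 were lower in carcinoma, with differences from -0.54 for Cd8a to -0.01 for Cd4. The 4 natural killer cell markers averaged 4.48 to 4.84 in untagged carcinoma and 4.88 to 5.02 in untagged papilloma. Of these, 4 of 4 were lower in carcinoma, with differences from -0.38 to -0.11. Cd3d, Cd3g, Cd2, Ncr1 and Nkg7 were dim, below the lowest array median of 5.38 in every untagged array. T and natural killer cells are known as producers of type II interferon, and the untagged difference passed for none of the 10 markers. Myeloid markers, 7 of 7, had higher means in untagged carcinoma, at 5.82 to 6.60 against 5.70 to 6.11 in untagged papilloma. Fibroblast markers, 8 of 8, had lower means in untagged carcinoma, at 5.93 to 7.93 against 7.63 to 8.30 in untagged papilloma. Dendritic markers, 5 of 5, had lower means in untagged carcinoma, at 5.16 to 5.71 against 5.51 to 5.94 in untagged papilloma. Their differences ran from -1.13 for H2-Aa to -0.006 for Ccr7, with a median of -0.07. H2-Aa overlapped between tumour types, at 5.22 to 7.89 in untagged carcinoma against 7.37 and 8.19 in untagged papilloma. Endothelial markers were lower for 6 of 8, at 5.17 to 5.80 in untagged carcinoma against 5.47 to 5.66 in untagged papilloma, and keratinocyte markers were higher for 5 of 6, at 12.33 to 12.51 in untagged carcinoma against 12.05 to 12.46 in untagged papilloma.

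GFP arrays carried higher levels of most interferon-stimulated genes than untagged arrays did, in both classes. With tumour type as a covariate, limma called 19 of 36 genes higher (52.8%), against 11.9% of all genes, and 1 of 36 lower, against 7.93% of all genes. The 19 were 13 of 26 type I genes and 6 of 10 type II genes, with differences from 1.0 to 4.18 and adjusted p from 0.000181 to 0.0376. Median differences were 1.23 for type I genes and 2.75 for type II genes, against -0.05 over all genes. The type II median was 1.57 without the carcinoma GFP array and 4.10 without the papilloma GFP array. Both GFP arrays lay above every untagged array for 25 of 36 genes, against 21.0% of all genes, and below every untagged array for 2 of 36, against 19.9%. The call count rested on both GFP arrays, with 5 genes called without the carcinoma GFP array and 12 without the papilloma GFP array. The 5 were Ifit2, Trim30a, Gbp3, Gbp7 and Socs1. Endothelial and fibroblast markers and the Gapdh 3′ minus 5′ difference, given above, separate the same arrays. Markers of other cells called for the tag were 4 of 7 myeloid, 2 of 5 dendritic, 2 of 6 T cell and 1 of 4 natural killer cell markers, all higher, and 5 of 6 keratinocyte markers, all lower. Myeloid markers averaged 7.38 to 7.69 in GFP arrays, against 5.70 to 6.60 in untagged arrays, and keratinocyte markers averaged 10.79 to 11.05 in GFP arrays, against 12.05 to 12.51 in untagged arrays. Dendritic markers averaged 6.35 to 6.41 in GFP arrays, against 5.16 to 5.94 in untagged arrays. The part of these cells and of RNA length in the difference of the interferon-stimulated genes was not tested.

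Type I genes called higher spanned sensing, signalling and effector functions. Of the cytoplasmic RNA sensors, Ddx58 (RIG-I) rose by 1.28 ± 0.24 and Ifih1 (MDA5) by 1.93 ± 0.50, while Dhx58 (LGP2) had a difference of 1.03 ± 0.33 with adjusted p = 0.0771 by limma. Ifih1 was not called without carcinoma 2 (1.92) or without papilloma 1 (1.90). Dhx58 was called without carcinoma 3 (1.18), the untagged array with its highest value. Trim30a was 12.6 times higher, with a difference of 3.66 ± 0.38 (SE, n = 2 and 5, limma adjusted p = 0.00122). Ifit2 was 9.73 times higher, with a difference of 3.28 ± 0.21 (limma adjusted p = 0.000181). Its relatives Ifit1 and Ifit3 rose by 2.82 ± 0.44 and 1.32 ± 0.20. Rsad2, or viperin, which makes a chain-terminating nucleotide, rose by 2.33 ± 0.34, and Oasl2 rose by 2.52 ± 0.35. Samd9l, a brake on growth and virus replication, rose by 2.73 ± 0.49, and Parp14, an ADP-ribosyltransferase, by 2.69 ± 0.41.

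Signalling components were called with smaller differences. Stat2 rose by 1.12 ± 0.23 (limma adjusted p = 0.0178) and Irf7 by 1.0 ± 0.17 (limma adjusted p = 0.00796), and for both genes the GFP arrays lay above all untagged arrays. Irf9 overlapped between tagged and untagged arrays, with a difference of 0.52 ± 0.48 (limma adjusted p = 0.519). Stat2 was not called when all probe sets of a gene were averaged (0.56). Usp18 and Rtp4 had large differences, 2.32 ± 0.83 and 3.16 ± 0.90, yet missed the threshold with adjusted p of 0.105 and 0.0524 by limma. Both genes passed without carcinoma 3, the untagged array with the highest value for each, at 2.79 and 3.66. Ifi35, a binding partner of Nmi, was called at 1.36 ± 0.28, but the result depends on the probe set, since its probe set without cross-matching probes gave -0.08.

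The remaining type I genes were not called. Xaf1, a promoter of apoptosis, had a difference of 1.18 ± 0.57, Oas1a, which makes the activator of ribonuclease L, 1.05 ± 0.66, and Ifi27l2a 0.86 ± 0.97. Xaf1 (1.49) and Oas1a (1.42) passed without carcinoma 3, and Ifi27l2a (1.71) passed without papilloma 2. In each case the array left out was the gene's highest untagged array, so leaving it out raises the difference. The double-stranded RNA enzymes Eif2ak2, or PKR, and Adar, which edits adenosine, had differences of 0.47 ± 0.41 and 0.28 ± 0.25. Eif2ak2 was lower in GFP arrays on its 2 other probe sets, with plain mean differences of -0.68 and -0.86. Bst2 (0.31 ± 0.19), Oasl1 (0.07 ± 0.16) and Mx1 (-0.14 ± 0.24), a dynamin-like GTPase, had differences of at most 0.31 in size, and Mx1, at 3.92 to 4.74 in all arrays, was the only gene of the 36 that failed the filter on dim genes. Ifitm3 had a difference of -0.54 ± 0.19 (limma adjusted p = 0.0924), and both GFP arrays lay below all untagged arrays.

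Type II genes with the largest differences were the GTPases of both families. Iigp1 was 18.1 times higher in GFP arrays, with a difference of 4.18 ± 0.82 (SE, limma adjusted p = 0.0142). Gbp3 had levels of 9.0 in the carcinoma GFP array and 8.48 in the papilloma GFP array, against 4.21, 4.51 and 4.86 in carcinoma arrays 1, 2 and 3 and 5.25 and 5.43 in papilloma arrays 1 and 2. Every untagged array lay at least 3.05 below the GFP arrays for Gbp3, and the difference was 3.85 ± 0.33 (limma adjusted p = 0.000566). Gbp2 rose by 3.79 ± 0.83, Igtp by 3.71 ± 0.50, Gbp7 by 3.62 ± 0.43 and Irgm1 by 1.89 ± 0.36. Irf1 (0.66 ± 0.26), Cxcl9 (1.49 ± 1.07) and Cxcl10 (-0.17 ± 0.55) were not called. Irf1 passed without carcinoma 3 (0.78) and Cxcl9 without the papilloma GFP array (3.83). These were the highest untagged array for Irf1 and the lower GFP array for Cxcl9, so leaving them out raises the differences.

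Socs1, the feedback inhibitor that blocks Jak kinases downstream of both receptors, was the 1 gene of the 36 called lower in GFP arrays. It had levels of 5.32 in the carcinoma GFP array and 4.78 in the papilloma GFP array, against 6.42, 6.55 and 6.84 in carcinoma arrays 1, 2 and 3 and 6.96 and 6.55 in papilloma arrays 1 and 2. Both GFP arrays lay at least 1.10 below the untagged arrays, and Socs1 fell by 1.61 ± 0.24 (SE, limma adjusted p = 0.00496). The call was lost without the papilloma GFP array (-1.29). Its promoter, printed above, carries 2 overlapping matches to the ISRE core, and their part in this difference was not tested.

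**Figure D4:**
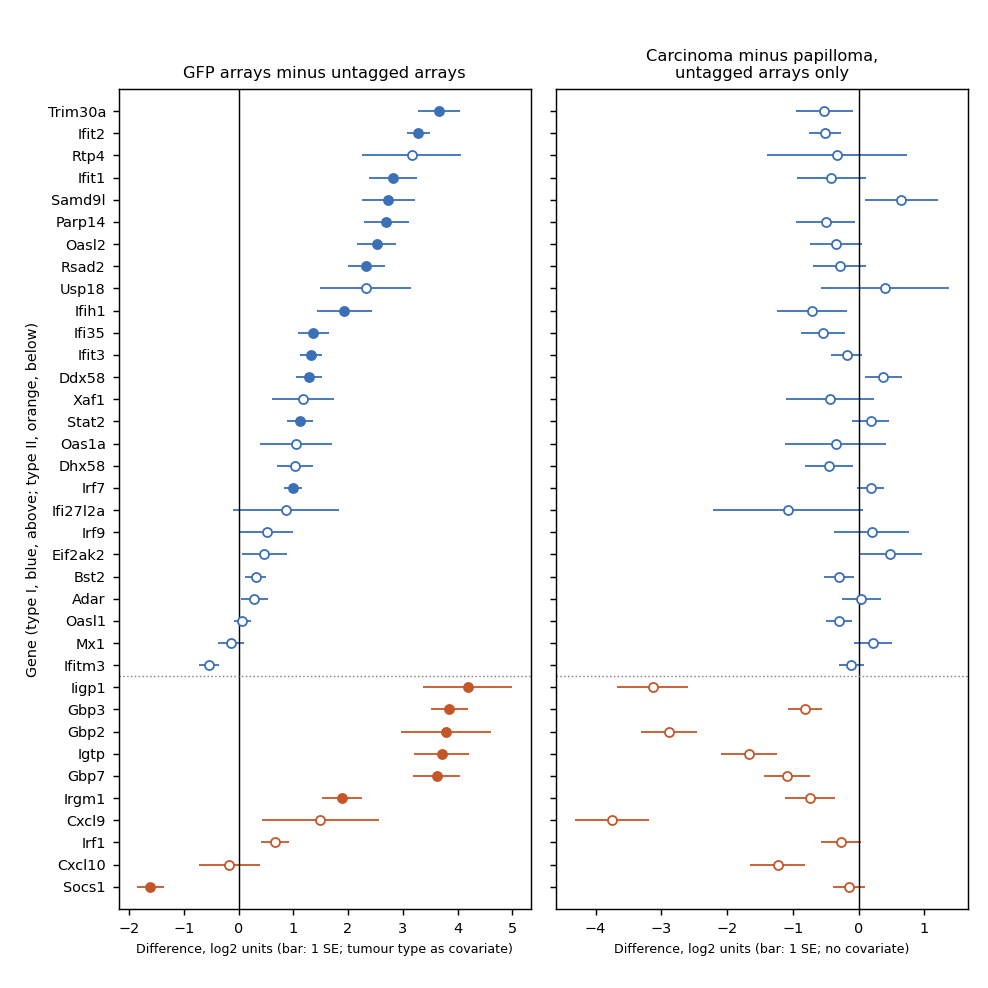
Differences with 1 SE in log2 units for the 36 genes, type I in blue above and type II in orange below. Left: GFP arrays minus untagged arrays with tumour type as a covariate, where filled points are the 20 genes called by limma. Right: carcinoma minus papilloma in the untagged arrays, where 0 genes were called and all 10 type II genes lie left of 0.

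The difference between tumour types in the GFP pair was set against that in the untagged arrays. In the pair, 9 of 10 type II genes were higher in the carcinoma GFP array than in the papilloma GFP array, with a median difference of 0.52, against 56.9% of all genes, and type I genes split evenly, 13 higher and 13 lower, with a median of -0.01. Type II genes that were higher in carcinoma in the GFP pair and lower in carcinoma without the tag numbered 9 of 10, against 7 of 26 type I genes and 32.2% of all genes. The interaction of tumour type and tag was above 0 for all 10 type II genes, against 59% of all genes, with a median of 1.72, and had a median of 0.25 for type I genes, against 0.08 over all genes. After adjustment over all genes limma called 0 of 36 interactions, against 0% of all genes. At an unadjusted p under 0.05, 5 of 10 type II genes and 0 of 26 type I genes had a higher interaction, against 1.89% of all genes. The 5 were Cxcl9 (4.97 ± 1.05), Gbp2 (3.88 ± 0.78), Iigp1 (3.54 ± 0.99), Cxcl10 (2.22 ± 0.77) and Gbp3 (1.33 ± 0.48). The GFP group has 1 array for each tumour type, which is assumed to vary like the untagged arrays. Fibroblast markers changed sign alike, with 8 of 8 higher in carcinoma in the GFP pair and 8 of 8 lower without the tag. Their median interaction was 1.71. Natural killer cell markers (4 of 4 and 4 of 4) and T cell markers (5 of 6 and 6 of 6) did likewise. Of dendritic markers 1 of 5 was higher in the pair, and of myeloid markers 0 of 7 were lower without the tag. The part of these cells in the change of sign was not tested.

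**Figure D5:**
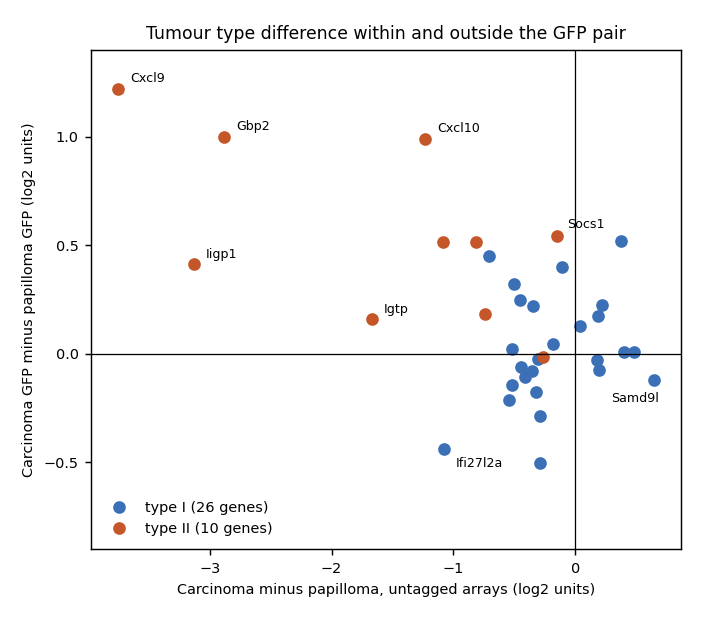
Carcinoma minus papilloma in the untagged arrays (horizontal axis) against carcinoma GFP minus papilloma GFP (vertical axis), both in log2 units, 1 point per gene. Of the 10 type II genes (orange), 9 lie in the upper left, lower in carcinoma without the tag and higher in carcinoma with it. Type I genes (blue) lie around the crossing of the axes.

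The rest of the pathway was read from lists that hold none of the 36 genes. For carcinoma against papilloma, 0 genes of any list passed. Of 10 listed interferon genes 6 were measured, and Ifng alone was called for the tag. Ifng had levels of 5.58 in the carcinoma GFP array and 5.11 in the papilloma GFP array, against 3.80, 3.65 and 3.67 in carcinoma arrays 1, 2 and 3 and 4.13 and 3.75 in papilloma arrays 1 and 2. It rose by 1.54 ± 0.22 in GFP arrays (SE, limma adjusted p = 0.0043). Only its carcinoma GFP value exceeded the array medians of 5.38 to 5.50, so Ifng was dim in the other arrays. The 5 measured type I interferon genes had differences from -0.45 to -0.11. Of these, Ifnb1, Ifna2, Ifna4 and Ifna5 lay below the array medians in every array. Among 9 measured receptor and kinase genes, 4 were called higher in GFP arrays, namely Jak2 (1.70), Il10rb (1.65), Ifnar2 (1.42) and Ifnar1 (1.25), and 1 was called lower, Ifnlr1 (-0.83), the specific chain of the receptor for type III interferon. Over all genes 11.9% were called higher and 7.93% lower.

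Sensors and relays upstream of interferon production were measured for 17 of 17 genes, with 4 called higher and 1 lower in GFP arrays, against 11.9% and 7.93% of all genes. Tlr3, the endosomal receptor for double-stranded RNA, rose by 3.26 ± 0.39 and Irf8, a factor of myeloid and dendritic cells, by 2.32 ± 0.26. Sting1, the adaptor that answers cyclic dinucleotides, rose by 1.88 ± 0.50 and Trim25, a ubiquitin ligase for RIG-I, by 1.68 ± 0.21, and Irf5 fell by 0.76 on the log2 scale. Of 17 measured further type I targets, 3 were called higher, Helz2 (2.46), Dtx3l (1.45) and Sp100 (1.44), and 0 lower, against 11.9% and 7.93% of all genes, so the share called higher was near that of all genes. Of 10 measured further type II targets, 5 were called higher, namely Serping1 (4.56), Irgm2 (4.11), Ifi47 (3.92), Gbp6 (3.32) and Cd274 (1.38), and 0 lower, against the same shares of all genes.

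Further type II targets also lay below 0 in the untagged comparison of carcinoma with papilloma. All 10 had a lower mean in untagged carcinoma, with a median difference of -0.53, against 57.9% of all genes with a lower mean. In 3 of the 10 all carcinoma arrays lay below all papilloma arrays, against 8.81% of all genes. Those 3 were GTPases again. Ifi47 had levels of 4.89, 6.01 and 4.78 in carcinoma arrays 1, 2 and 3, against 6.80 and 7.91 in papilloma arrays 1 and 2, a difference of -2.13. Irgm2 and Gbp6 had differences of -1.26 and -1.17, and 0 of the 10 passed after adjustment. Further type I targets had 10 of 17 lower in untagged carcinoma, with a median of -0.05.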

How the data were processed

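RNA of sorted tumour cells was labelled and hybridised to 7 Affymetrix mouse arrays, and the authors normalised the arrays with RMA, per the labels' protocols. RMA and affy appear by name in the submitters' processing notes. Their versions are not given in sources used here. The deposited values lie between 2.72 and 14.51 and were read as log2 intensities from this range, since the labels do not name the scale. RMA equalises the distribution of the arrays, so differences are relative to the other genes of an array. According to the labels the strip format of the array was used, and probe sets were named from the platform annotation of 2016, which gave 18193 genes with 1 probe set each. The 64 control probe sets were left out of the tests. Dim probe sets were kept, and signal over background is not given, so the number of arrays limits the precision.

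Groups came from tumour type and tag in the titles. Tests were run in R 4.3.3 with limma 3.58.1 (lmFit and eBayes, two-sided) on all 7 arrays, with Benjamini-Hochberg adjustment over all genes and a threshold of 0.05. Carcinoma against papilloma had no covariate, GFP against untagged arrays had tumour type as a covariate, and the interaction of tumour type and tag was fitted separately. A log2 difference of GFP arrays is the coefficient of that fit. Carcinoma against papilloma in the untagged arrays was fitted to those 5 arrays alone. Each procedure was also run on simulated normal arrays, and no result above rests on those runs. Python 3.11.15 with matplotlib 3.10.9 was used for figures.

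Members and lists were chosen with earlier results of these data known. Values in every array are given for Stat2, Irf7, Irf9, Irf1, Usp18, Socs1, Cxcl9, Cxcl10 and Ifitm3 and for the 3 genes of each class with the largest difference in each comparison. Oasl1 and the pathway genes shown by array were picked with their values in view. Both tumour types have arrays numbered 1 and 2 and a GFP array. Correlations of the deviations from group means were 0.476 for number 1, 0.194 for number 2 and 0.861 for the GFP pair, across genes. The group means include the GFP arrays, so these values cannot show whether the numbers mark pairs. The numbers were treated as pairs in an alternative fit with a block. Arrays of different number correlated as well, up to 0.683. Other alternatives changed the probe set rule, the dim filter, the centring, the variance model, array weights, the covariates and the arrays left out.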

Additional observations from a re-analysis of the deposited data

Results flagged for a closer look

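In 8 of 72 groups of values tested, 1 array stood apart from the others by a large part of the group's range. By chance the rule flags about 1 of 20 groups of independent values. Here the genes share the same arrays, the carcinoma groups hold the GFP array, and the untagged groups mix tumour types. The count therefore cannot be set against that rate. The gap to the nearest array, as a share of the range, was 0.874 for Ifit2, 0.855 for Ifit3, 0.863 for Trim30a, 0.864 for Gbp3 and 0.844 for Iigp1 among carcinoma arrays, and in each of these the carcinoma GFP array was the highest. For Oasl1 carcinoma 1 was the lowest carcinoma array, with a share of 0.858. Among untagged arrays, carcinoma 1 stood above the others for Mx1 with a share of 0.715, and carcinoma 3 for Stat2 with a share of 0.726.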

How the results depend on the processing

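For carcinoma against papilloma 0 of 36 genes were called under any alternative run, including the replicate block, under which the median difference was -0.33 for type I and -0.60 for type II genes and which changed no call. With the tag as a covariate the medians were -0.23 and -0.60, and with array weights -0.40 and -1.33. Leaving out 1 array gave type I medians from -0.62 to 0.27 and type II medians from -1.94 to -0.44. For GFP against untagged arrays the number of genes called was 20, between 19 and 22 under other settings, 27 with array weights, and 5 to 26 when 1 array was left out, the lowest without the carcinoma GFP array and 12 without the papilloma GFP array. The type II median was 1.57 without the carcinoma GFP array and 4.10 without the papilloma GFP array, and the type I median lay between 0.98 and 1.41 under every alternative run. Without probe sets prone to cross-matching Ifi35 had a difference of -0.08, where another probe set of the gene is read. No interaction was called under the alternatives run, and it could not be fitted without a GFP array. With 2 GFP arrays, 1 for each tumour type, the tag cannot be told apart from any other property these arrays share.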
